A study of Homo sapiens with 6 samples.

Results

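This set holds 42 human genes for collagens, laminins and other structural proteins of the extracellular matrix, with the enzymes that crosslink them. The genes were chosen by symbol, by a rule that uses no measured value, and all 42 were found among the 18318 genes of a count table from A375, an established cell line of human melanoma. A375 cells carried a pcDNA3.1 plasmid with a CAG promoter and a puromycin resistance gene, delivered with Lipofectamine 2000. In the SLNCR group the plasmid expressed the wild type sequence of the long non-coding RNA SLNCR (LINC00673), and in the empty vector group it was the backbone alone. All cells grew as adherent cultures in DMEM with 10% serum and spent 48 h in 2 µg/mL puromycin before RNA was taken, so both groups were transfected and drug-selected. Each group has 3 libraries, called biological replicates. Whether these were separate cultures is not stated, so p-values measure the spread between these libraries only. The labels describe no clone, and these are bulk samples in which fewer cells with a transcript and less of it per cell cannot be told apart.

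Total counts per library were between 9287450 and 10822083. The transfected RNA was counted at 1786, 2569 and 2040 reads in the SLNCR libraries, against 195, 194 and 193 in the empty vector libraries, a log2 fold change of 3.38 (adjusted p = 3.11e-05 by edgeR, SE 0.147). The labels call the cells epithelial. Of 8 epithelial markers 7 were among the rows used and 1 (CLDN4) had enough reads for a test, while EPCAM and CDH1 averaged 2.67 and 1.0 reads per library. Their summed level was 5.04 to 6.15 CPM in SLNCR libraries and 5.62 to 6.35 CPM in empty vector libraries. The melanocyte regulators MITF and SOX10 averaged 875 and 126 reads, and the pigment genes PMEL, TYRP1 and DCT 5.83, 6.0 and 2.83. The 6 melanocyte markers in the rows used summed to 107 to 119 CPM in SLNCR libraries and 90.8 to 110.4 CPM in empty vector libraries. Of these 6, 3 were tested, and not all 6 are named above. Fibroblasts make much of the matrix of a tumour. Of their 8 markers 3 were tested, with averages of 103 reads for PDGFRB, 9.5 reads for THY1 and 21.5 reads for POSTN. Among the others DCN averaged 0.667, COL3A1 2.5, PDGFRA 5.17 and LUM 9.5 reads per library. The 8 fibroblast markers, FAP included, summed to 15.4 to 18.2 CPM in SLNCR libraries and 14.3 to 18 CPM in empty vector libraries. The sum of 5 endothelial markers was 1.54 to 2.56 CPM in SLNCR libraries and 1.2 to 1.87 CPM in empty vector libraries. The part of these markers in the results on matrix genes was not tested.

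The extracellular matrix is the protein scaffold that cells secrete around themselves. Collagen chains wind into triple helices in the endoplasmic reticulum, where lysyl hydroxylases modify them and a dedicated chaperone holds the helix. Outside the cell, lysyl oxidases crosslink the fibrils. Laminins, collagen IV, nidogens and heparan sulphate proteoglycans assemble the basement membrane, the sheet that melanocytes sit on and that melanoma cells cross when they invade.

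Levels of the matrix genes differed widely in A375 cells, with THBS1 highest and the collagen I chains among the lowest. Of the 42 genes, 40 had enough reads to be tested (the default low-count filter of edgeR). Levels are given as CPM (the reads of a gene relative to all reads of its library, scaled by the TMM method) per kb of the longest transcript of a gene. On this scale 23 genes lay at 10 or more, 10 between 1 and 10 and 9 below 1. THBS1, the secreted adhesive glycoprotein thrombospondin-1, stood far above the rest at 730.4, and its reads were 47.6% to 50.2% of all reads of the set in a library. TGFBI, a secreted ligand of integrins, followed at 134, SPARC, a collagen-binding matricellular protein, at 126, and the laminin chain gene LAMB1 at 99.3. The order among TGFBI and SPARC turned when the union of all exons was used as length, with 79.8 and 96.3. Of the crosslinking and hydroxylating enzymes, PLOD3 stood at 73.6, LOXL2 at 56.6 and PLOD1 at 48.8, in the range of the laminin gene LAMC1 at 53.7 and the proteoglycan gene AGRN at 49.4. The best expressed collagen chains were COL4A2 and COL4A1 at 30.6 and 28.6, followed by COL6A1 at 15.9. By the union of exons these 3 stood at 10.3, 12.8 and 12.6, so their order depends on the length used.

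At the low end, the chains of collagen I, the main fibrillar collagen of skin, were close to absent. COL1A1 had 27, 28 and 18 reads in the SLNCR libraries, against 29, 28 and 31 in the empty vector libraries. COL1A2 was counted at 0, 2 and 1 reads in the SLNCR libraries, against 0, 2 and 0 in the empty vector libraries, too few for a test. The fibrillin gene FBN2 was likewise not tested, at 9, 2 and 1 reads in the SLNCR libraries, against 4, 2 and 2 in the empty vector libraries. LOX, the founding lysyl oxidase, averaged 24.2 reads per library, COL6A3 24.8, THBS2 15 and the small proteoglycan gene BGN 12, so fold changes of these genes are imprecise.

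**Figure D1:**
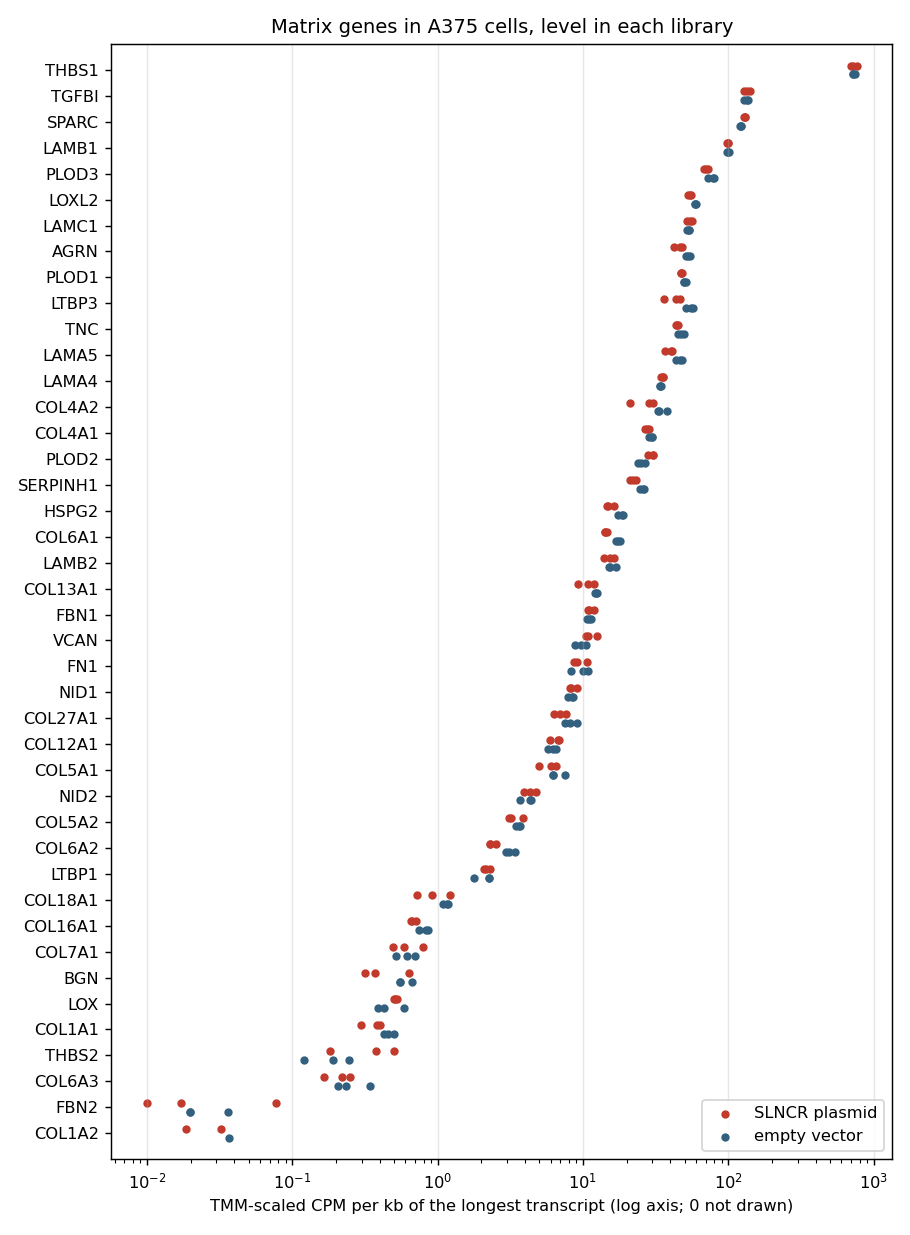
Level of each of the 42 matrix genes in each of the 6 libraries, in TMM-scaled CPM per kb of the longest transcript on a log axis, with SLNCR libraries above empty vector libraries in each row; values of 0 are not drawn. THBS1 stands apart at 730.4 on average, and COL1A2 and FBN2 are at the floor.

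The comparison of the groups asked which matrix genes differ when SLNCR is overexpressed. Of 40 tested genes of the set, 7 were lower and 1 was higher with SLNCR (edgeR adjusted p below 0.05 over all genes), and 32 did not pass. Those lower were the collagen VI genes COL6A1 and COL6A2, the basement membrane genes LAMA5, HSPG2 and AGRN, the latent TGF-beta binding protein gene LTBP3 and the collagen chaperone gene SERPINH1, and the gene that was higher was the lysyl hydroxylase gene PLOD2. The background over all 12797 tested genes was 16.5% called in either direction, 7.67% lower and 8.84% higher. Called members made up 20% of those tested, so their total was near the background, and the direction was tilted downward. The count depended on single libraries: 0, 0 and 0 members were called without SLNCR replicate 1, empty vector replicate 1 and empty vector replicate 2, and 13 without SLNCR replicate 2, while the same fits called 1, 1, 2 and 3366 of all genes. The largest of the 8, of COL6A2, was a log2 fold change of -0.42, which is 1.33-fold lower with SLNCR. The median over the tested members was -0.090, beside -0.0097 over all tested genes, and 26 of 40 lay below 0, where 51.2% of all tested genes did. The groups did not overlap for 15 members that were lower and 3 that were higher with SLNCR. Over all tested genes 19.1% had groups apart in the lower direction and 19.7% in the higher one, 38.9% in all.

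The direction of a gene followed the GC content (share of G and C bases) of its longest transcript. The median of the tested members was 56%, above the 47.9% of all tested genes, and 61.2% among the collagen chains. Among the 21 members with at least 55% GC, 20 had a log2 fold change below 0, at a median of -0.22, and all 7 genes called lower were in this class. The 7 members with 50% to 55% GC had a median of 0.042, and the 12 below 50% one of 0.040. These class limits were chosen after the values were seen. Across the 40 tested members, which share the 6 libraries and are not independent, the log2 fold change and GC content had Pearson's r = -0.631 and Spearman's rho = -0.78. Over all tested genes with a GC value the coefficients were -0.637 and -0.692. With transcript length on a log2 scale r was 0.119 among members. In the range from 60% to 65% GC, 2 of 11 members were called lower, while 28.7% of all tested genes in that range were. At 65% and above it was 4 of 5 members and 33.1% of all genes. From 55% to 60% it was 1 of 5 and 15.9%. The median log2 fold change in the 60% to 65% range was -0.25 for members and -0.24 for all genes. At 65% and above it was -0.25 for members and -0.29 for all genes, and from 55% to 60% -0.12 and -0.17. From 50% to 55% the medians differed in sign, with 0.042 for members and -0.082 for all genes. From 45% to 50% they were 0.032 and 0.013, and below 45% 0.18 and 0.16.

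**Figure D2:**
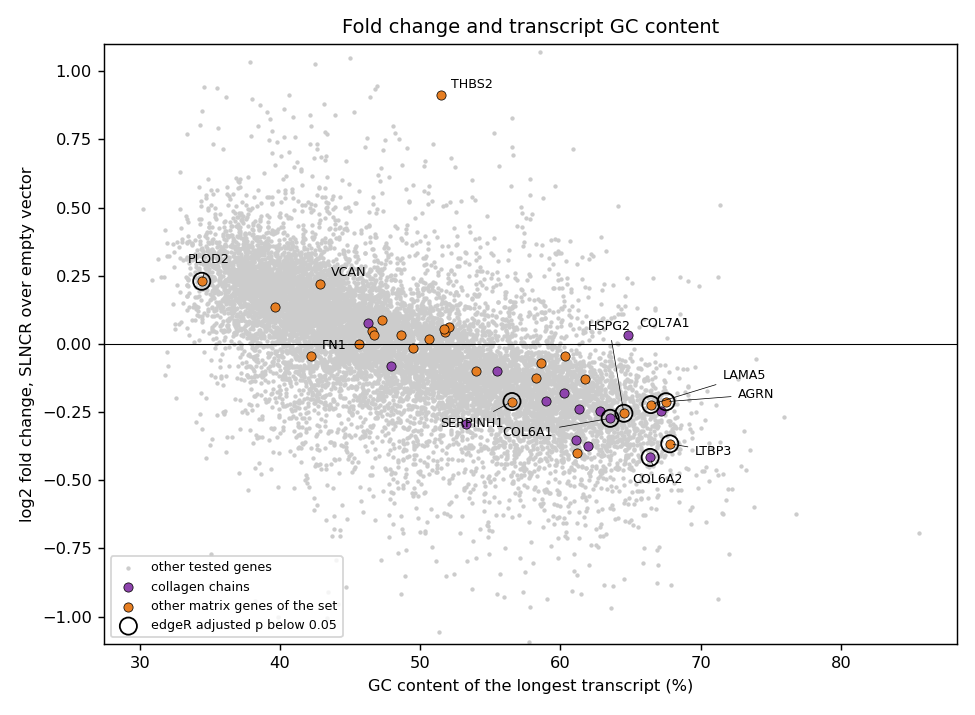
Log2 fold change (SLNCR over empty vector) against the GC content of the longest transcript for all tested genes (grey) and the members (collagen chains purple, others orange); rings mark members with edgeR adjusted p below 0.05, and 16 genes beyond 1.1 in either direction are outside the frame. Ringed members below 0 lie at 55% GC or more, and PLOD2, the ringed member above 0, at 34.4%.

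The same tilt was present between libraries. For each library, deviations of log2 CPM from the empty vector mean were set against GC content over all tested genes. The slope per 10 percentage points of GC was -0.16, -0.12 and -0.25 in SLNCR replicates 1, 2 and 3, against 0.041, 0.0049 and -0.046 in empty vector replicates 1, 2 and 3. SLNCR replicate 3 had the steepest slope and replicate 2 the shallowest of its group. The members with at least 55% GC had a median deviation of -0.18, -0.13 and -0.32 in SLNCR replicates 1, 2 and 3, against 0.025, 0.022 and -0.063 in empty vector replicates 1, 2 and 3, with the same order of SLNCR libraries. For members below 50% GC the medians were 0.11, -0.011 and 0.078 in SLNCR replicates 1, 2 and 3, against 0.0091, 0.0053 and -0.0069 in empty vector replicates 1, 2 and 3, and those groups overlapped. A correction for GC content was therefore computed, which subtracts in each library a smooth curve of the deviation of log2 CPM against GC content. With it 0 of 40 members passed edgeR at an adjusted p of 0.05, against 0.0156% of all tested genes, and 6 members had an unadjusted p below 0.05, against 15.1% of all tested genes. DESeq2 was not run with this correction. The corrected median of the members was 0.017, beside 0.0015 for all tested genes. The corrected values of 14 members had the opposite sign to the uncorrected ones. The transfected RNA did not pass in this fit either, at 3.38 (adjusted p = 0.054 by edgeR, SE 0.201). A gene that does not pass is thus not shown to be without a change. The transfected RNA had no GC value of its own and was corrected at the median GC content. It passed in the corrected fits with the replicate block (adjusted p = 1.9e-21 by edgeR) and with a length correction (adjusted p = 0.0391 by edgeR).

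**Figure D3:**
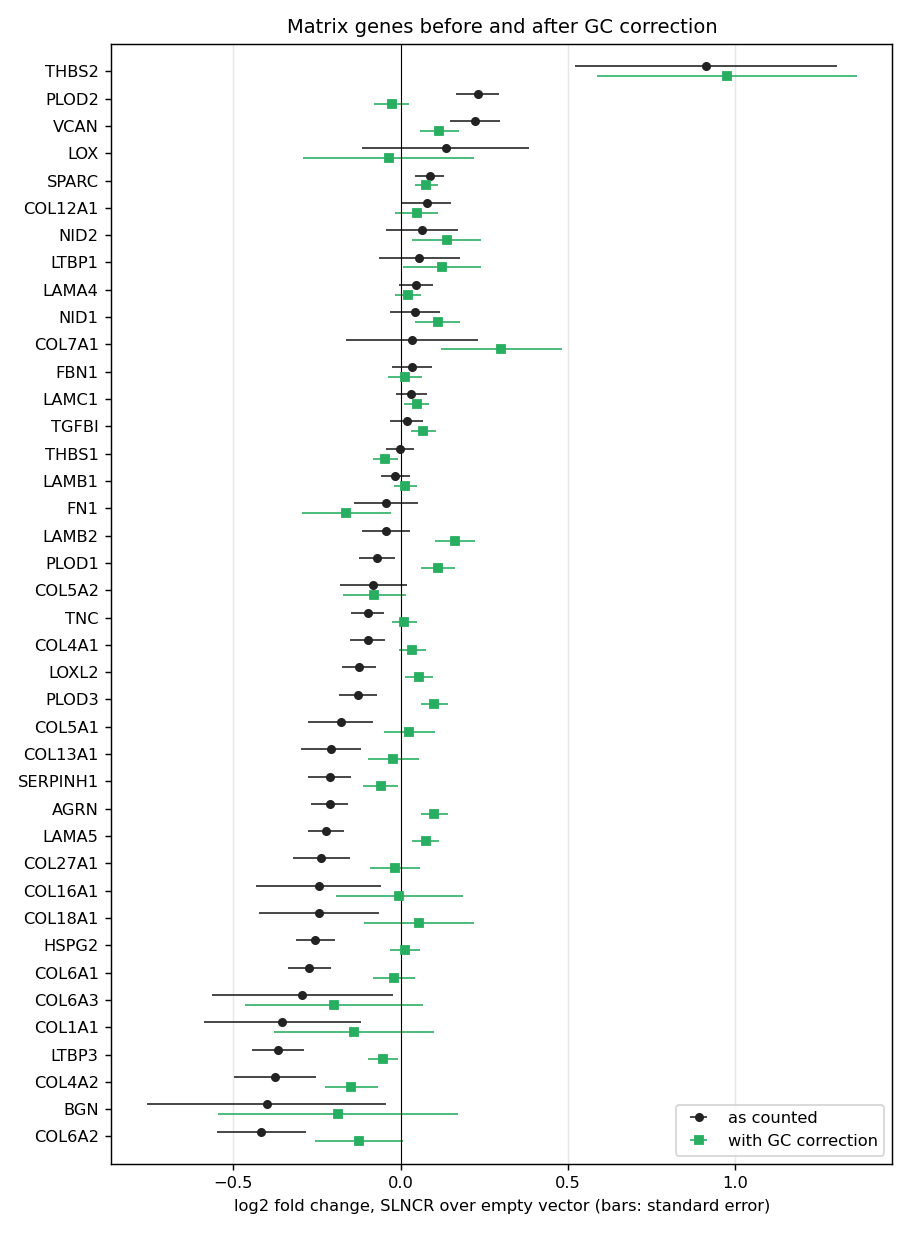
Log2 fold change (SLNCR over empty vector) of the 40 tested members as counted (black) and with the GC correction (green), with standard errors as bars. Corrected values other than that of THBS2 lie within 0.30 of 0.

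Of the 15 collagen chain genes of the set, 14 were tested, 2 were lower, 0 were higher and 12 were not called. That is 14.3% called, beside 7.67% lower, 8.84% higher and 16.5% in either direction over all tested genes. The median log2 fold change of the 14 was -0.24, and -0.019 with the GC correction. A collagen chain has glycine once in each triplet of residues of its helix, and glycine and the frequent proline are encoded by GGN and CCN codons, which raises the GC content of the coding sequence. In the coding sequences (GENCODE 29, longest open reading frame of each gene) glycine codons made up a median of 23.3% of codons in the 15 collagen genes and 8.65% in the other 27 members. At the first and second codon positions the median GC content was 67.4% in collagen genes and 50.2% in the others. At the third position, which mostly does not alter the amino acid, the order was turned, with 56.5% and 65.5%. The collagen genes spread widely there, from 28.8% in COL5A2 to 80.9% in COL6A2. The repeat is shown for 4 chains that differ in GC content, as the first 81 bases of the longest uninterrupted run of such triplets in the coding strand (GENCODE 29, GRCh38), with the glycine codons in capitals.
COL6A2: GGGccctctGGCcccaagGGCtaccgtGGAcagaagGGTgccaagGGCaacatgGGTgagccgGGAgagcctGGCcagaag
COL4A2: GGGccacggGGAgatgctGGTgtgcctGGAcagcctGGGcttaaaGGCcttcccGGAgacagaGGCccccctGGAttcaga
COL4A1: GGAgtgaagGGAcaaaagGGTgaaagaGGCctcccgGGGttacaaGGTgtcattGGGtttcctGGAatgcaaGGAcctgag
COL5A2: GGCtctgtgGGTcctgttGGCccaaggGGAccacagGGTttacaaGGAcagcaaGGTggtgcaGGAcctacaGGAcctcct
These stretches hold 67.9% GC in COL6A2, 65.4% in COL4A2, 54.3% in COL4A1 and 60.5% in COL5A2. Whole transcripts, untranslated parts included, hold 66.4%, 62%, 55.4% and 47.9%. The log2 fold changes of these genes, in the same order, were -0.42, -0.37, -0.099 and -0.082. This order does not hold for every chain. COL18A1 has 67.2% GC and stood at -0.25, and COL7A1 has 64.8% and stood at 0.034. Over the 40 tested members the log2 fold change had Spearman's rho = -0.707 with coding GC content. It was -0.478 with GC content of the first and second positions and -0.421 with that of the third position. These coefficients describe members that share libraries.

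Collagen VI forms beaded filaments next to basement membranes, and the genes of both its short chains were called lower as counted. That is 66.7% of its 3 tested genes, beside 7.67% lower and 16.5% in either direction over all tested genes. In the GC ranges of COL6A1 and COL6A2, 28.7% and 33.1% of all tested genes were called lower. COL6A1 (ENSG00000142156, chromosome 21, 45981737 to 46005050, plus strand, GRCh38) had 62.3, 60.1 and 60.2 CPM in the SLNCR libraries, against 75.6, 73.8 and 71.1 CPM in the empty vector libraries. The groups did not overlap, and its log2 fold change was -0.27 (adjusted p = 0.0159 by edgeR, SE 0.0647). COL6A2 (ENSG00000142173, chromosome 21, 46098097 to 46132849, plus strand) lies on the same chromosome and had 7.89, 8.75 and 7.9 CPM in the SLNCR libraries, against 11.8, 10.2 and 10.7 CPM in the empty vector libraries. It was lower in every SLNCR library than in any empty vector library, with -0.42 (adjusted p = 0.0413 by edgeR, SE 0.132). DESeq2 gave no adjusted p for COL6A2. Leaving out any 1 library other than SLNCR replicate 2 ended the call, with SLNCR replicate 3 left out at -0.39 (adjusted p = 0.0767 by edgeR) and empty vector replicate 3 left out at -0.43 (adjusted p = 0.0712 by edgeR). COL6A1 has 63.5% GC and COL6A2 66.4%. Corrected for GC content, COL6A1 stood at -0.020 (adjusted p = 0.913 by edgeR, SE 0.0616) and COL6A2 at -0.12 (adjusted p = 0.684 by edgeR, SE 0.131). The long chain gene COL6A3 did not pass, at -0.29 (adjusted p = 0.458 by edgeR, SE 0.27), with 24.8 reads per library.

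Collagen IV makes the network of the basement membrane from COL4A1 and COL4A2 chains. COL4A2 had 184, 198 and 138 CPM in the SLNCR libraries, against 245, 218 and 212 CPM in the empty vector libraries. SLNCR replicate 3 was the lowest of the 6 libraries, and the groups did not overlap, but the gene did not pass at -0.37 (adjusted p = 0.0678 by edgeR, SE 0.123). It passed with no low-count filter, at -0.36 (adjusted p = 0.000315 by edgeR), and when either of 2 libraries was left out, at -0.24 (adjusted p = 0.00663 by edgeR) without SLNCR replicate 3 and at -0.48 (adjusted p = 0.0171 by edgeR) without SLNCR replicate 2. The partner chain COL4A1 had 183, 188 and 176 CPM in the SLNCR libraries, against 198, 199 and 189 CPM in the empty vector libraries, which did not overlap either, at -0.099 (adjusted p = 0.195 by edgeR, SE 0.0533). The GC correction put COL4A2 at -0.15 (adjusted p = 0.416 by edgeR, SE 0.0787) and COL4A1 at 0.035 (adjusted p = 0.72 by edgeR, SE 0.0411). These genes lie head to head on chromosome 13 and are known to share a promoter. Their RefSeq starts are 127 bases apart. In GENCODE 29 the outermost gene bounds overlap instead, with COL4A2 from 110305812 on the plus strand and COL4A1 from 110307233 on the minus strand. The 300 bases around the start of COL4A2 (RefSeq, GRCh38.p14, chr13:110307034-110307333, plus strand) are printed because both genes start within them, COL4A1 at 110307157 on the minus strand and COL4A2 at 110307284 on the plus strand. Capitals mark a CCAAT motif and a GC box (GGGCGG).
COL4A2: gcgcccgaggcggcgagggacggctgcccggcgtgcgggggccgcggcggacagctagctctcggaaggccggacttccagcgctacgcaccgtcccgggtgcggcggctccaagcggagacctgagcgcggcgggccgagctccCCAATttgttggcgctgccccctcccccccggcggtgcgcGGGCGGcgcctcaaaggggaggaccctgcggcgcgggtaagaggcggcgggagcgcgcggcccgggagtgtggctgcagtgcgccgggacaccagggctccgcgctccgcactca
The window holds 77.7% GC.

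COL18A1, whose chain carries heparan sulphate and yields endostatin, had 5.99, 8.07 and 4.78 CPM in the SLNCR libraries, against 7.18, 7.71 and 7.66 CPM in the empty vector libraries. The groups overlapped, and it did not pass at -0.25 (adjusted p = 0.343 by edgeR, SE 0.179). COL7A1, the anchoring fibril collagen, was the one member with at least 55% GC that did not lie below 0, with 64.8% GC and a log2 fold change of 0.034 (adjusted p = 0.902 by edgeR, SE 0.196). Its corrected value was 0.30, on 55.7 reads per library. Among fibrillar collagens 0 of 4 passed. An unadjusted edgeR p below 0.05 was reached by 1 of the 4, beside 34.8% of all tested genes. DESeq2 gave an adjusted p for 3 of the 4 and called 0, and limma-voom called 0 of 4. The most abundant per kb of the longest transcript was COL27A1 (by the union of exons it stood at 4.25 and COL5A1 at 4.72), with 54.4, 59.8 and 49.3 CPM in the SLNCR libraries, against 58.7, 70.9 and 63.6 CPM in the empty vector libraries. SLNCR replicate 2 lay within the range of the empty vector libraries, and the log2 fold change was -0.24 (adjusted p = 0.0614 by edgeR, SE 0.0847). COL27A1 passed with no low-count filter, at -0.22 (adjusted p = 0.0288 by edgeR), and without SLNCR replicate 2, at -0.31 (adjusted p = 0.0124 by edgeR). COL5A1, which helps start collagen fibrils, had 54.9, 51.1 and 42.5 CPM in the SLNCR libraries, against 63.3, 52.7 and 52.5 CPM in the empty vector libraries, and its groups overlapped at -0.18 (adjusted p = 0.192 by edgeR, SE 0.0959). COL5A2 stood at -0.082 (adjusted p = 0.581 by edgeR, SE 0.0999) and COL1A1 at -0.35 (adjusted p = 0.293 by edgeR, SE 0.235). COL13A1, a transmembrane collagen of adhesion sites, had 34.5, 37.7 and 29.4 CPM in the SLNCR libraries, against 39.9, 38.8 and 39 CPM in the empty vector libraries. Its groups did not overlap, and it did not pass at -0.21 (adjusted p = 0.109 by edgeR, SE 0.0897), but did without SLNCR replicate 2, at -0.29 (adjusted p = 0.0263 by edgeR). COL12A1 and COL16A1, which decorate fibrils, stood at 0.077 and -0.25, and neither passed. COL12A1 has 46.3% GC and COL16A1 62.8%.

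Laminins are trimers of an alpha, a beta and a gamma chain, tied to collagen IV by nidogens and proteoglycans. Of 9 tested genes 3 were lower and 0 were higher, 33.3% called, beside 7.67% lower and 16.5% in either direction over all tested genes. LAMA5 (ENSG00000130702, chromosome 20, 62307955 to 62367312, minus strand) encodes an alpha chain and had 468, 464 and 420.3 CPM in the SLNCR libraries, against 530.4, 547 and 501 CPM in the empty vector libraries. Every SLNCR library was below every empty vector library, at -0.22 (adjusted p = 0.0159 by edgeR, SE 0.0531). HSPG2 (ENSG00000142798, chromosome 1, 21822245 to 21937297, minus strand), which encodes the proteoglycan perlecan, had 209.5, 234 and 213 CPM in the SLNCR libraries, against 266, 268 and 248 CPM in the empty vector libraries. The groups were again apart, at -0.25 (adjusted p = 0.0143 by edgeR, SE 0.0568). AGRN (ENSG00000188157, chromosome 1, 1020123 to 1056118, plus strand), the gene of the proteoglycan agrin, had 346, 356 and 312 CPM in the SLNCR libraries, against 392, 405 and 379 CPM in the empty vector libraries, with no overlap and -0.21 (adjusted p = 0.0201 by edgeR, SE 0.0549). LAMA5, HSPG2 and AGRN have 66.4%, 64.5% and 67.5% GC. After the correction they stood at 0.074 (adjusted p = 0.378 by edgeR, SE 0.0392), 0.014 (adjusted p = 0.918 by edgeR, SE 0.0453) and 0.10 (adjusted p = 0.238 by edgeR, SE 0.040), all on the other side of 0. The chains with lower GC content did not pass and lay close to 0. LAMB1, the most abundant laminin gene per length, had 570.4, 572 and 566 CPM in the SLNCR libraries, against 575, 588 and 565 CPM in the empty vector libraries. Its groups overlapped, with -0.016 (adjusted p = 0.809 by edgeR, SE 0.0441). LAMC1 stood at 0.032 and LAMA4 at 0.046. LAMB2 departs from the tilt, since it has 60.3% GC and had 92.9, 86.5 and 79.7 CPM in the SLNCR libraries, against 86.4, 96.2 and 85.1 CPM in the empty vector libraries. The groups overlapped at -0.045 (adjusted p = 0.676 by edgeR, SE 0.0716), and its corrected value was 0.16 (adjusted p = 0.209 by edgeR, SE 0.0605). The nidogen genes NID1 and NID2, which bridge laminin and collagen IV, stood at 0.042 and 0.064 and did not pass. After correction all 9 genes of this group lay above 0, as did 6465 of all 12797 tested genes. These 9 values were between 0.014 and 0.16, and 0 passed edgeR. An unadjusted edgeR p below 0.05 was reached by 2 (LAMB2 and AGRN), beside 15.1% of all tested genes.

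**Figure D4:**
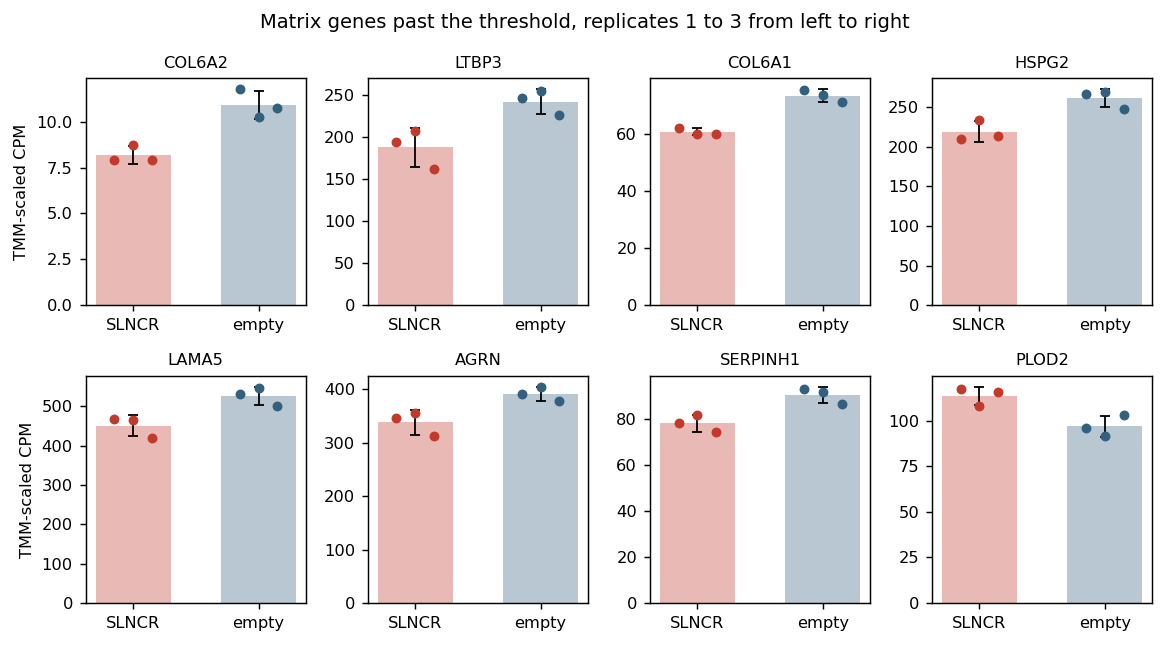
TMM-scaled CPM of the 8 members past the threshold in each library, with points for SLNCR replicates 1 to 3 left of empty vector replicates 1 to 3, bars for group means and error bars for the SD (n = 3). The groups do not overlap in any of the 8 panels, and SLNCR is the lower group in all of them except PLOD2. The genes were picked by a test on these same libraries, so their separation is no further evidence. Over all tested genes 38.9% had groups apart.

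Adhesive and matricellular glycoproteins sit in the matrix and bind cell receptors. Of 6 tested genes 0 passed. An unadjusted edgeR p below 0.05 was reached by 1 of the 6 (THBS2), beside 34.8% of all tested genes. DESeq2 gave an adjusted p for 5 of the 6 and called 0, and limma-voom called 0 of 6. THBS1, the most abundant gene of the set, had 5968, 5629.6 and 5426 CPM in the SLNCR libraries, against 5772, 5629.7 and 5647 CPM in the empty vector libraries. The groups overlapped at -0.0021 (adjusted p = 0.97 by edgeR, SE 0.0425). TNC, which encodes tenascin-C, had 338, 342 and 331 CPM in the SLNCR libraries, against 378, 359.7 and 345 CPM in the empty vector libraries. Its groups did not overlap, and it did not pass at -0.099 (adjusted p = 0.167 by edgeR, SE 0.0497). SPARC was higher in every SLNCR library than in any empty vector library, without passing, at 0.086 (adjusted p = 0.175 by edgeR, SE 0.0443), and the corrected value was 0.076. TGFBI and FN1, the fibronectin gene, stood at 0.018 and -0.044 with overlapping groups. The widest difference in the set was that of THBS2, a thrombospondin with 51.5% GC and few reads. It had 23, 11 and 26 reads in the SLNCR libraries, against 7, 10 and 13 in the empty vector libraries. SLNCR replicate 2 lay within the range of the empty vector libraries, and the log2 fold change was 0.91 (adjusted p = 0.106 by edgeR, SE 0.39). Its corrected value was 0.97 (adjusted p = 0.236 by edgeR, SE 0.388). Without SLNCR replicate 2 it passed, at 1.23 (adjusted p = 0.0161 by edgeR) as counted and at 1.31 (adjusted p = 0.0347 by edgeR) with the correction. The call thus depends on that library, and calls over all genes rose with it left out. They numbered 3366 as counted and 668 with the correction, against 2112 and 2 with no library left out.

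Fibrillins form microfibrils, and latent TGF-beta binding proteins store the growth factor on them. LTBP3 (ENSG00000168056, chromosome 11, 65538805 to 65558930, minus strand) had 195, 207 and 162 CPM in the SLNCR libraries, against 246, 254 and 226 CPM in the empty vector libraries. SLNCR replicate 3 was the lowest library, and the groups did not overlap. Its log2 fold change was -0.37 (adjusted p = 0.0139 by edgeR, SE 0.0769), the smallest adjusted p of the set, and -0.053 (adjusted p = 0.585 by edgeR, SE 0.044) with the GC correction. LTBP3 has the highest GC content of the members, 67.8%. LTBP1 and FBN1, with 51.7% and 46.7% GC, stood at 0.056 and 0.033 and did not pass. Of the proteoglycan genes, VCAN (versican, 42.9% GC) had 136, 132 and 158 CPM in the SLNCR libraries, against 122, 112 and 132 CPM in the empty vector libraries. The groups did not overlap, and it lay just outside the threshold at 0.22 (adjusted p = 0.0515 by edgeR, SE 0.0745), with 0.12 after correction. DESeq2 called it, at 0.23 (adjusted p = 0.0489 by DESeq2). VCAN also passed with no low-count filter, at 0.24 (adjusted p = 0.00316 by edgeR), without SLNCR replicate 2, at 0.27 (adjusted p = 0.0106 by edgeR), and without empty vector replicate 3, at 0.28 (adjusted p = 0.0382 by edgeR). BGN stood at -0.40 (adjusted p = 0.444 by edgeR, SE 0.357).

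Of the 6 tested genes for collagen crosslinking and folding, 1 was higher, 1 was lower and 4 did not pass. That is 33.3% called, beside 8.84% higher, 7.67% lower and 16.5% in either direction over all tested genes. PLOD1, PLOD2 and PLOD3 encode lysyl hydroxylases, which modify collagen lysines before crosslinking. They are paralogs whose GC content differs widely, at 34.4% in PLOD2, 58.6% in PLOD1 and 61.7% in PLOD3. The last 90 coding bases of each, stop codon included, are shown to compare them, with G and C in capitals (GENCODE 29, GRCh38, coding strand).
PLOD2: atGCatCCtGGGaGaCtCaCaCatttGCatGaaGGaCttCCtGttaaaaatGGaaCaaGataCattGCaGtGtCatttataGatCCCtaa
PLOD1: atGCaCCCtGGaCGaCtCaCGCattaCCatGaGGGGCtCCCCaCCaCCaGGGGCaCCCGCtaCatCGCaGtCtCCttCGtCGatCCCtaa
PLOD3: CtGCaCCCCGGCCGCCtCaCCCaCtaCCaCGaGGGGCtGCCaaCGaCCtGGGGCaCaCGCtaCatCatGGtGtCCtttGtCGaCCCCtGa
PLOD2 differs from PLOD1 at 27 of the 90 bases, 19 of them at the third base of a codon, and from PLOD3 at 35, 22 of them at the third base. Of the 30 codons 7 end in G or C in PLOD2, 22 in PLOD1 and 26 in PLOD3.

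PLOD2 (ENSG00000152952, chromosome 3, 146069440 to 146163653, minus strand) had 117, 108 and 116 CPM in the SLNCR libraries, against 96.1, 91.8 and 103 CPM in the empty vector libraries. Every SLNCR library was above every empty vector library, at 0.23 (adjusted p = 0.0255 by edgeR, SE 0.0636). PLOD1 had 139, 139 and 141 CPM in the SLNCR libraries, against 146, 146 and 149.5 CPM in the empty vector libraries, with no overlap, and did not pass at -0.071 (adjusted p = 0.357 by edgeR, SE 0.0534). PLOD3, the most abundant of the enzymes per length, had 206, 213 and 197 CPM in the SLNCR libraries, against 234, 227 and 212 CPM in the empty vector libraries. Its groups overlapped at -0.13 (adjusted p = 0.112 by edgeR, SE 0.0556). After correction PLOD2 had the lowest value of the 3, with -0.027 for PLOD2, 0.11 for PLOD1 and 0.10 for PLOD3, and none of them passed edgeR (adjusted p = 0.85, 0.295 and 0.245). SERPINH1 (ENSG00000149257, chromosome 11, 75562056 to 75572783, plus strand) encodes the collagen chaperone of the endoplasmic reticulum and had 78.1, 81.7 and 74.6 CPM in the SLNCR libraries, against 93.2, 91.8 and 86.6 CPM in the empty vector libraries. The groups did not overlap, and its log2 fold change was -0.21 (adjusted p = 0.0351 by edgeR, SE 0.0642). Without SLNCR replicate 3 it did not pass, at -0.18 (adjusted p = 0.0615 by edgeR). At 56.5% GC its corrected value was -0.060 (adjusted p = 0.607 by edgeR, SE 0.052). LOXL2, a secreted lysyl oxidase, had 194, 196 and 187 CPM in the SLNCR libraries, against 212, 208 and 208 CPM in the empty vector libraries, without overlap and without passing at -0.12 (adjusted p = 0.0956 by edgeR, SE 0.0511). LOX had 2.66, 2.59 and 2.56 CPM in the SLNCR libraries, against 2.0, 2.97 and 2.19 CPM in the empty vector libraries, and its overlapping groups gave 0.13 (adjusted p = 0.723 by edgeR, SE 0.25). The corrected values were 0.053 for LOXL2 and -0.035 for LOX.

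Chains of one trimer, and chains of one type that can replace each other in it (LAMA5 and LAMA4, LAMB2 and LAMB1), were also compared within a library, as a ratio of counts per kb, which does not depend on library scaling. The chains of collagen IV and the laminin alpha chains were the pairs whose ratio did not overlap between groups. COL4A1 over COL4A2 was 0.978, 0.934 and 1.26 in the SLNCR libraries, against 0.794, 0.898 and 0.878 in the empty vector libraries. SLNCR replicate 3 had the highest ratio. The difference of log2 ratios (SLNCR minus empty vector) was 0.29 (exact permutation p = 0.1, two-sided). LAMA5 over LAMA4 was 1.16, 1.19 and 1.03 in the SLNCR libraries, against 1.38, 1.4 and 1.29 in the empty vector libraries, with a difference of -0.27 (exact permutation p = 0.1). With 3 libraries per group no p below 0.1 can be reached, and over the 7 ratios the Benjamini-Hochberg value was 0.35 for both. GC content of the chains in these pairs differs by -6.55 and 19.9 percentage points (first minus second chain). GC-corrected differences were 0.19 and 0.053, with an exact permutation p of 0.2 for each, and LAMB2 over LAMB1 stood at 0.15 (exact permutation p = 0.1). COL6A1 exceeded COL6A2 5.61 to 6.44 times per kb in SLNCR libraries and 5.25 to 5.88 times in empty vector libraries (exact permutation p = 0.2). LAMB1 exceeded LAMC1 1.75 to 1.9 times in SLNCR libraries and 1.85 to 1.91 times in empty vector libraries (exact permutation p = 0.3). LAMB2 over LAMB1, COL5A1 over COL5A2 and COL6A3 over COL6A2 gave exact permutation p of 0.8, 0.4 and 0.7. COL1A1 over COL1A2 was also planned but not computed, because COL1A2 had 0 reads in some libraries.

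**Figure D5:**
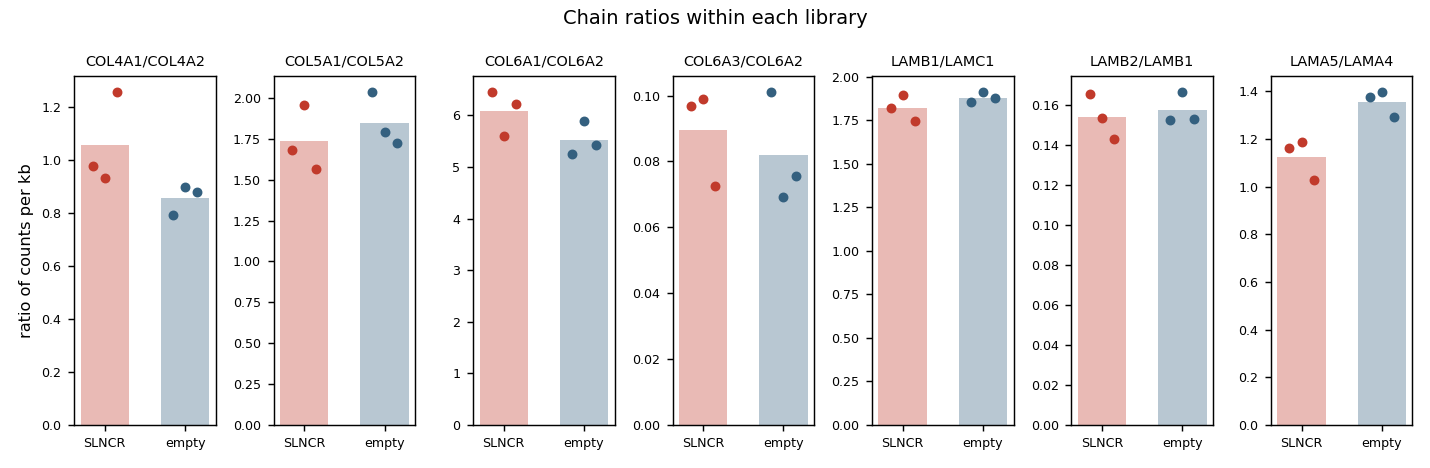
Ratio of counts per kb between chains of one trimer or alternative chains of one type, with SLNCR replicates 1 to 3 left of empty vector replicates 1 to 3 and bars for group means; each panel has its own linear axis from 0. The groups are apart in the panels of COL4A1/COL4A2 and LAMA5/LAMA4 and overlap in the other panels.

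Other genes of the pathway were read from the same fit. Of 33 genes for collagen modification, processing and secretion 29 were tested, 3 rose and 4 fell, at a median log2 fold change of -0.067. Called genes made up 24.1% of this list, beside 16.5% of all tested genes. Those that rose were TMEM38B, an ion channel gene, at 0.32 (adjusted p = 0.0201 by edgeR, SE 0.0823), SEC23A of the vesicle coat at 0.25 and MIA2, which loads collagen into vesicles, at 0.32, with 34%, 37.3% and 38.5% GC. Those that fell were P4HB, a subunit of prolyl hydroxylase, at -0.28 (adjusted p = 0.0147 by edgeR, SE 0.0636), P3H4 at -0.39, the procollagen protease gene BMP1 at -0.36 and the crosslinking enzyme gene TGM2 at -0.14, with 58.4%, 61.9%, 61% and 55.1% GC. SEC23A, MIA2 and TGM2 were named after their values were seen, to complete these counts. Of 55 further matrix genes 47 were among the rows used and 30 were tested. EMILIN1, an elastic fibre gene, fell at -0.49 (adjusted p = 0.0147 by edgeR, SE 0.112) and TNXB, the tenascin-X gene, at -0.59 (adjusted p = 0.0268 by edgeR, SE 0.165), 0 were higher, and the median was -0.080. Called genes were 6.67% of this list. After the correction 0 genes of either list passed edgeR, and the medians were 0.027 and 0.021. An unadjusted edgeR p below 0.05 was reached by 6 and 4 genes, beside 15.1% of all tested genes.

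The study concerns SLNCR and E2F1, so the promoters were searched for E2F motifs. RefSeq windows from 250 bases before to 50 after the start were matched for 36 of the 42 genes. An E2F motif (any of TTTGGCGG, TTTGGCGC, TTTGCCGG, TTTGCCGC, TTTCGCGG, TTTCGCGC, TTTCCCGG or TTTCCCGC, on either strand) was found in 2 of them, HSPG2 and NID1, which is 5.56%, beside 6.19% of all 35116 windows. HSPG2 was called lower and NID1 was not. A GC box (GGGCGG, either strand) was found in 28 of 36 windows, 77.8%, beside 45% of all windows. The windows compared were not matched for GC content or for expression of their genes, and the difference was not tested. Exons of 12 members overlap those of a gene on the opposite strand, among them HSPG2 (LDLRAD2, 2121 bases), LAMA5 (ADRM1 and LAMA5-AS1), COL4A2 (COL4A2-AS1 and COL4A2-AS2), NID2, PLOD3 and SPARC. The strand setting of the counting is not given in the sources used here, so reads in those bases cannot be told apart.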

How the data were processed

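RNA of A375 cells was measured by sequencing, with 3 SLNCR and 3 empty vector libraries read from both ends at 150 bases after ribosomal RNA depletion, per the labels' protocols. The authors deposited raw counts of reads for each gene, recognised by whole numbers whose totals differ between libraries. The tools cutadapt, STAR and DESeq2 and the build GRCh38 are named per the submitters' processing notes. What each tool did, which program counted the reads, with what annotation and on which strand is not given in the sources used here. Of 20238 rows, 1857 named no gene (2.15% to 2.59% of counts) and were left out, as were 63 rows with the same counts as a neighbouring row and a mean of at least 10. Symbols, coordinates, length and GC content came from GENCODE 29 and covered 99.9% of the genes tested.

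The test was the two-sided quasi-likelihood F-test of edgeR 4.0.16 (R 4.3.3; robust, TMM, default filter, no covariate). P-values were adjusted by Benjamini-Hochberg over all 12797 genes, at a threshold of 0.05. The biological coefficient of variation was 5.65%, and replicates differed by more than sampling noise (chi-square per degree of freedom 1.79 to 6.97). Libraries held 12640 to 12900 genes with 10 counts or more. Standard errors were derived from the F statistic. Log2 values used a prior count of 2. The GC correction entered as offsets a loess curve per library (span 0.5, degree 2), fitted on genes with a mean log2 CPM above 1. Alternatives were DESeq2 1.42.0, limma 3.58.1, other scalings, filters and thresholds, the replicate block, a length correction and leaving out each library. The scripts were tested on simulated data.

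Values in every library are given for members past the threshold, the most abundant tested member per length of each role group and members whose sign the GC correction turns, with the others given more briefly. From each other list the rule names up to 4 genes with the smallest adjusted p past the threshold. Members and lists were chosen with earlier results of these data known.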

Additional observations from a re-analysis of the deposited data

How the results depend on the processing

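Depth limits the set at the low end: the 9 genes below 1 CPM per kb carry few reads. With RLE or upper quartile factors, no filter, a stricter filter, DESeq2, limma-voom, the replicate block or all rows kept, between 8 and 12 members were called, with a median log2 fold change from -0.10 to -0.062. Over all genes these settings called from 1681 (DESeq2, of 8827 with an adjusted p) to 3523 (replicate block, of 12797). With no filter it was 2904 of 18318. DESeq2 did not give an adjusted p for every member. With the GC correction, alone, with the replicate block or with a length correction, 0, 0 and 0 members were called, with medians of 0.017, 0.017 and 0.024. At an adjusted p of 0.01, 0 members were called. Leaving out 1 library, the count of called members ranged from 0 (without SLNCR replicate 1, empty vector replicate 1 or empty vector replicate 2) to 13 (without SLNCR replicate 2), and was 7 without SLNCR replicate 3. Over all genes these fits called 1, 1, 2 and 3366 genes. With the GC correction and 1 library left out the count ranged from 0 to 1 (THBS2, without SLNCR replicate 2) and the median from 0.0098 to 0.040. The corrected fit without SLNCR replicate 2 called 668 of all genes. Over all genes the 3 corrected fits called 2, 408 and 16, against 2112 as counted. The cause was not tested.

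For collagen modification and secretion genes the 3 corrected fits called 0, 0 and 0, with medians of 0.027, 0.028 and 0.026, and an adjusted p of 0.01 called 0. Leaving out 1 library gave 0 to 9 calls and medians of -0.092 to -0.033. For the further matrix genes the corrected fits called 0, 0 and 0, with medians of 0.021, 0.027 and 0.015, DESeq2 called 1, the replicate block 5, and thresholds of 0.1 and 0.01 called 8 and 0. The stricter filter moved their median to -0.15, and leaving out 1 library gave 0 to 5 calls and medians of -0.12 to -0.074. SLNCR itself stood at 3.38 with the GC correction, and between 3.26 and 3.52 when a library was also left out.

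The sign of 14 members turned with the GC correction alone, with the replicate block and with the length correction, with COL5A1 at 0.026, 0.026 and 0.026, COL4A1 at 0.035, 0.035 and 0.032, COL18A1 at 0.054, 0.044 and 0.051, LAMA5 at 0.074, 0.074 and 0.082 and LAMB1 at 0.014, 0.014 and 0.0082. In the same 3 fits there were LAMB2 at 0.16, 0.16 and 0.16, HSPG2 at 0.014, 0.012 and 0.028, AGRN at 0.10, 0.10 and 0.097, TNC at 0.010, 0.010 and 0.0083 and LOX at -0.035, -0.036 and -0.042. The rest of the 14 were LOXL2 at 0.053, 0.054 and 0.045, PLOD1 at 0.11, 0.11 and 0.11, PLOD2 at -0.027, -0.027 and -0.035 and PLOD3 at 0.10, 0.10 and 0.094. THBS1 turned to 0.0017 with RLE factors, 0.013 with no filter and 0.0017 with DESeq2. Leaving out 1 library turned the sign of 9 members whose values as counted ranged thus: COL7A1 from -0.18 to 0.17, LAMB2 from -0.10 to 0.011, NID1 from -0.015 to 0.075, NID2 from -0.010 to 0.13, FN1 from -0.14 to 0.049, THBS1 from -0.040 to 0.031, TGFBI from -0.014 to 0.053, FBN1 from -0.014 to 0.062 and LTBP1 from -0.046 to 0.11. With the GC correction the 14 members whose sign turned on leaving out 1 library were COL5A1 from -0.048 to 0.095, COL27A1 from -0.11 to 0.055, COL18A1 from -0.11 to 0.14, COL6A1 from -0.066 to 0.031, COL6A3 from -0.34 to 0.044, COL12A1 from -0.0021 to 0.10 and COL16A1 from -0.032 to 0.048, as well as COL13A1 from -0.074 to 0.031, HSPG2 from -0.028 to 0.058, TNC from -0.0050 to 0.029, FBN1 from -0.038 to 0.038, BGN from -0.53 to 0.026, LOX from -0.13 to 0.15 and PLOD2 from -0.060 to 0.0027.

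Replicate numbers are shared by the groups, and same-numbered libraries had correlated deviations of 0.041, 0.022 and 0.19, with SLNCR replicate 2 closest to empty vector replicate 1 (0.14), so the numbers were not taken as pairs. With the replicate block, 12 members (2 higher, 10 lower) and 3523 of all genes were called, with a member median of -0.091. The block added COL4A2 at -0.39 (adjusted p = 0.00136 by edgeR), COL27A1 at -0.24 (adjusted p = 0.0128 by edgeR), VCAN at 0.22 (adjusted p = 0.00346 by edgeR) and PLOD3 at -0.13 (adjusted p = 0.0447 by edgeR), and ended no call of a member. On other criteria of expression, 33 members reached 1 CPM per kb and 38 had at least 10 counts in every library.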
